A study of Rattus norvegicus with 12 samples.

Results

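The genes described here are the cyclins, the cyclin-dependent kinases (Cdks), the E2f transcription factors and a set of DNA replication and mitosis genes, measured in testes of rat embryos at embryonic day 16. The rule that chose them reads gene names and no signal: a probe set was a member if its single annotated gene symbol was a cyclin A, B, D or E, a numbered Cdk, a numbered E2f, Mcm2 to Mcm7, Pola1, Pold1, Pole, Rfc1 to Rfc5, Pcna, Mki67, Top2a, Cdc20, Aurka, Aurkb, Plk1 or Bub1b. Of 31099 probe sets on the array, 79 met this rule, and they stood for 55 genes. After the dimmest probe sets were left out, 74 member probe sets of 54 genes were tested, among 21729 tested in all. Cdk6 was the only member gene with no tested probe set, at signals of 4.3 to 20.3. The other untested members were 1 probe set of Cdc20 and 3 of Cdk14, genes that had other probe sets in the test. E2f3, Cdc6, Rrm2, Ccnb3, Cdk3 and Cdk15 fell under the rule but had no probe set with a single symbol, and are not analysed here.

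Dividing cells pass from growth into DNA replication when D-type cyclins with Cdk4 or Cdk6 phosphorylate the retinoblastoma protein and free the E2f factors, and when E-type cyclins with Cdk2 follow. The Mcm helicase then opens the DNA, the Rfc clamp loader places the Pcna clamp, and the polymerases copy both strands. Cyclin B with Cdk1 drives mitosis, in which the Aurora and Plk1 kinases act on the spindle and Cdc20 and Bub1b govern the exit. In the testis of this age the supporting Sertoli cells divide, and the germ cells pass from division towards an arrest that lasts until after birth.

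The study compared 2 lineages over 3 generations, with 2 arrays in each of 6 groups. Founder females received intraperitoneal vinclozolin at 100 mg/kg/day, or sesame oil with DMSO as vehicle, on days 8 to 14 of pregnancy. Vinclozolin, a fungicide, is turned in the body into products that act against the androgen receptor. Embryos of F1 were carried by the dosed females, while the protocols of F2 and F3 name no later dosing. All groups were testes of male embryos on day 16, each RNA being a pool of about 10 testes of 1 group. The labels give no strain and do not say if a group's pools were of separate litters, so p-values measure the spread between RNA pools. For the vinclozolin groups of F2 and F3 the protocols speak of matings between control lines, and here the titles decided the group. The values were linear signals scaled to a common level on every array, so a difference is relative to the rest of the array. In such pooled tissue, fewer cells of a type and less RNA per cell cannot be told apart.

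Signs of RNA quality and of other cells differed between the lineages. The beta-actin ratio of 5′ to 3′ signal lay between 0.423 and 0.471 on the 6 control arrays and between 0.149 and 0.395 on the 6 vinclozolin arrays. Its means were 0.171 in F1, 0.233 in F2 and 0.378 in F3 of the vinclozolin lineage. The same ratio of Gapdh was 0.959 to 1.02 on control arrays, with vinclozolin means of 0.684 in F1, 0.760 in F2 and 0.996 in F3, so its F3 mean lay within the control range. Testis markers were present. The summed signal of the 6 Sertoli genes on the array, which include Amh, was 6234 to 6563 on control arrays, and 5395 to 6117 in F1, 6601 to 6606 in F2 and 5565 to 5884 in F3 of the vinclozolin lineage. The 8 fetal Leydig genes summed to 12552 to 13273 on control arrays and to 13411 to 15665 on vinclozolin arrays. A sum follows its brightest genes, here Cyp17a1, Hsd3b1 and Cyp11a1. At a limma adjusted p under 0.05, 2 of the 11 Leydig probe sets were higher and 4 lower in F1. The counts were 3 and 3 in F2, and 3 and 1 in F3. Nr5a1 1369859_at gave −1.59, −0.64 and −0.82 on the log2 scale in F1, F2 and F3. The brighter probe set of Nr5a1, 1393286_at, gave −0.05, 0.17 and −0.17 and was not called. Hsd17b3 went the other way, at 0.45, 0.50 and 0.54. The 6 interstitial progenitor genes summed to 6535 to 6884 on control arrays, and to 6039 to 6425 in F1, 5418 to 5609 in F2 and 6436 to 6685 in F3 of the vinclozolin lineage. The 8 erythroid genes summed to 10793 to 12402 on control arrays and to 13191 to 16912 on vinclozolin arrays. Only 3 of 10 germ cell markers were on the array, at a sum of 302 to 337 on control arrays. In the vinclozolin lineage the sum was 221 to 269 in F1, 276 to 350 in F2 and 316 to 341 in F3. Singly in F1, Kit gave −1.86 on the log2 scale, Tdrd1 −0.20 and Nanos3 0.14. The 4 prostate secretory genes summed to 12.1 to 27.1 on control arrays, and to 27.5 to 49.9 in F1, 48.4 to 61.5 in F2 and 473 to 548 in F3 of the vinclozolin lineage. The part of these shifts in the differences described below was not tested, beyond a fit with the beta-actin ratio as a covariate.

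In F1, 9 member probe sets were higher and 13 lower in the vinclozolin lineage, at a Benjamini-Hochberg adjusted p under 0.05 in limma's fit. These shares, 12.2% and 17.6% of the 74 members, stood beside 9.41% higher and 13.7% lower among all tested probe sets. In either direction the shares were 29.7% of members and 23.1% of all. In F2, 3 members were higher and 7 lower, or 13.5% in either direction beside 14.3% of all. By direction, F2 gave 4.05% higher and 9.46% lower among members, beside 4.7% and 9.65% of all. In F3, 1 was higher and 1 lower, or 2.7% beside 3.11% of all, with 1.05% of all higher and 2.06% lower. The mean of the 3 differences called 7 members higher and 16 lower, or 31.1% beside 33.3% of all. By direction the mean gave 9.46% and 21.6% of members, beside 14.1% and 19.2% of all. In F2, F3 and the mean the members' shares were near those of all tested probe sets. In F1 the gap depended on the scaling. Quantile normalization called 18 of 74 members beside 23.5% of all, and centring each array on its median 18 of 74 beside 27%. Offsets of 1 and 64 gave 21 of 73 beside 22.3% and 22 of 74 beside 23.5%.

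**Figure D1:**
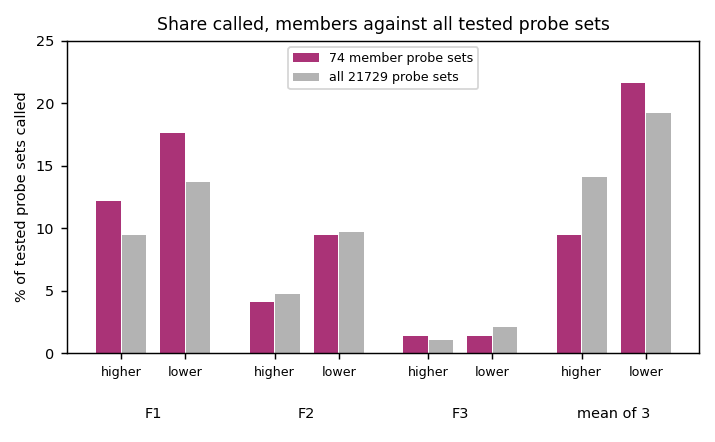
Share of tested probe sets called higher or lower in the vinclozolin lineage (percent, adjusted p under 0.05) for the 74 members and for all 21729 tested probe sets, in F1, F2, F3 and the mean of the 3 differences. The member bars stay within 5 percentage points of the bars for all probe sets; with arrays centred on their medians the F1 split of members turned from 9 higher and 13 lower to 11 and 7.

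The split between higher and lower calls depended on how the arrays were scaled. With each array centred on its own median, F1 had 11 members higher and 7 lower, F2 had 11 and 3, and the mean had 19 and 10. The whole array turned the same way: of all 21729 tested probe sets, 3678 were higher and 2199 lower in F1, 2594 and 1494 in F2, and 5524 and 2795 in the mean. Of the calls made on the deposited scale, 16 of 22 were shared in F1, 6 of 10 in F2 and 17 of 23 in the mean. That centring moved the median difference of all tested probe sets from −0.01 to 0.10 on the log2 scale in F1 and from −0.01 to 0.11 in F2, and the median of the members from −0.04 to 0.07 in F1. No named member turned its sign under this centring or under quantile normalization. With the beta-actin ratio as a covariate, 0 members were called in any generation, beside 0 of all tested probe sets in F1 or F2 and 1.14% in F3. That covariate follows lineage closely, and in F1 it raised the median standard error of the members from 0.119 to 0.509. In F3 that error went from 0.119 to 0.144. There Rfc5 1381933_at gave 0.42 (limma adjusted p = 0.0838) and Rfc1 1370591_at −0.83 (0.0565), both near their values without the covariate.

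The counts also moved with single arrays, and the share of all tested probe sets moved with them. F1 fell from 22 calls to 11 when either F1 control array was left out, while the share of all fell from 23.1% to 12.5% and 11.5%. F2 had 4 calls without either F2 control array or without the vinclozolin F2 array of replicate 2, beside 5.29%, 5.46% and 5.01% of all. It had 6 without any F1 or F3 control array or the other F2 vinclozolin array (11.5% to 13% of all), and 18 without either F1 vinclozolin array (22.5% of all each). F3 had 0 calls without the F3 control array of replicate 1 or either F3 vinclozolin array, beside 0.308%, 0.957% and 0.658% of all. It had 1 without the F3 control array of replicate 2 (0.299%), and 10 without either F1 vinclozolin array (10% each). The mean rose from 23 to 35 calls without the F1 vinclozolin array of replicate 1, beside 40.8% of all. The smallest p that an exact permutation test (2-sided) allows for 2 arrays against 2 is 0.333. Each generation's call therefore leans on the spread of all 6 groups. Median SDs of replicates (log2) were 0.160 in F1, 0.115 in F2 and 0.0968 in F3 of the vinclozolin lineage. In control groups they were 0.0678 to 0.0804. Array weights gave 15, 13 and 9 calls in F1, F2 and F3, beside 15.3%, 16.7% and 12.5% of all. Each generation's 4 arrays alone gave 10, 11 and 10, beside 10.6%, 15.6% and 10.4%. The fall in counts from F1 to F3 thus depended on the fit.

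Other settings ended single calls and kept their direction. On the 4 arrays of F1 alone, where 10.6% of all were called, the F1 calls of Rfc2, Rfc3, Mki67, Mcm6, Top2a, Ccne2, Pole, Cdk17, Cdk10 and both probe sets of Cdk9 were among those lost (limma adjusted p 0.0604 to 0.180). Array weights ended the F1 calls of Top2a, Cdk10, Ccne2, Pole and both of Cdk9 (0.0529 to 0.149). The fit without trend ended those of Mcm6, Top2a, Cdk10, Pole and both of Cdk9 in F1, of Pola1, Ccnd1 and Cdk12 1396320_at in F2, and of Rfc5 in F3 (0.0535 to 0.0949). Without the filter on dim probe sets, the calls of Mcm6, Cdk10 and Cdk9 1376491_a_at in F1, of Pola1 and Ccnd1 in F2, and of Cdk10 in the mean were lost (0.0501 to 0.0844).

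**Figure D2:**
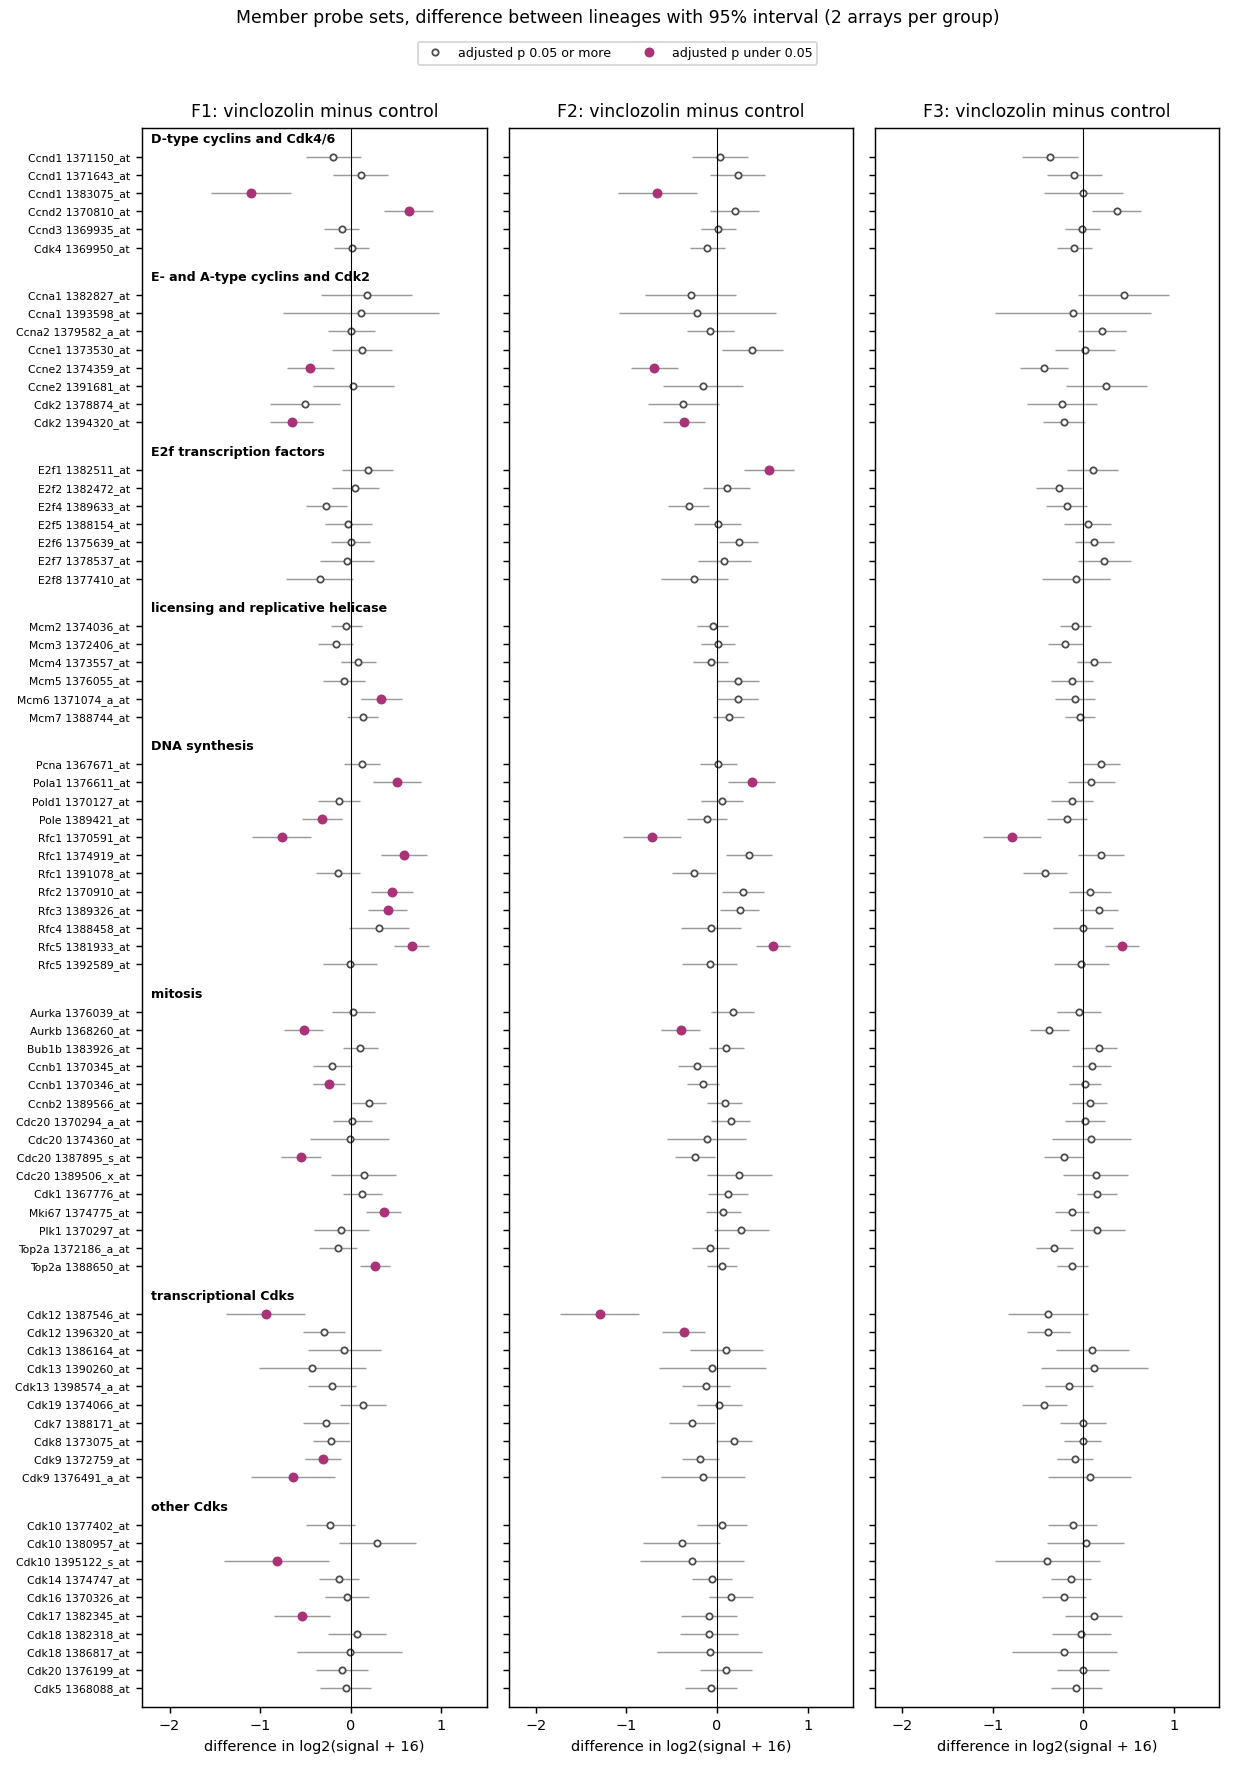
Difference between lineages (vinclozolin minus control) in log2(signal + 16) for each of the 74 tested member probe sets, grouped by role, in F1, F2 and F3; points are estimates, lines are 95% intervals, and filled points have an adjusted p under 0.05. Filled points number 22 in F1, 10 in F2 and 2 in F3, with the spread of all groups pooled (15, 13 and 9 with array weights). The F3 pair is Rfc1 (1370591_at, lower) and Rfc5 (1381933_at, higher).

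Counts by role are to be read beside the shares of all tested probe sets. These were 9.41% higher and 13.7% lower in F1, 4.7% and 9.65% in F2, and 1.05% and 2.06% in F3. In the mean they were 14.1% and 19.2%. At an unadjusted p under 0.05 in limma were 7649 of 21729 in F1, 6205 in F2, 3973 in F3 and 9333 in the mean. The DNA synthesis genes held the largest group of higher calls. Of their 12 tested probe sets, 5 rose and 2 fell in F1, 2 rose and 1 fell in F2, and 1 rose and 1 fell in F3. The 5 risers in F1 were Rfc1 (1374919_at), Rfc2, Rfc3, Rfc5 (1381933_at) and Pola1. In the mean of the 3 differences 5 rose and 3 fell, with a median of 0.09 beside −0.01 over all tested probe sets.

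Rfc5 is a small subunit of the clamp loader, and its probe set 1381933_at was the member that rose in all 3 generations. Its signal was 288.4 and 301.4 on the F1 control arrays, 309.8 and 319.2 in F2 control and 306.9 and 334.5 in F3 control. In the vinclozolin lineage it was 476.6 and 480.9 in F1, 502.3 and 479.3 in F2, and 430.4 and 440.1 in F3. All 6 vinclozolin arrays thus stood above all 6 control arrays, and the F3 pair was the lowest of the vinclozolin pairs. The log2 fold changes ± SE were 0.67 ± 0.09 in F1 (limma adjusted p = 0.000114), 0.62 ± 0.09 in F2 (0.000473) and 0.42 ± 0.09 in F3 (0.0211). The F3 call was lost, with the direction kept, when any of the 4 F3 arrays was left out (adjusted p 0.0876 to 0.255). The other probe set of Rfc5, 1392589_at, gave −0.01 in F1 (95% interval −0.30 to 0.29), −0.08 in F2 and −0.02 in F3. Its signals ran from 485 to 565.4 on control arrays and from 423.4 to 612.3 on vinclozolin arrays, which overlap.

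Rfc1, the large subunit of the loader, had 3 tested probe sets, and they moved in different directions. Probe set 1370591_at read 122.2 and 119.8 in F1 control, 128.1 and 117.1 in F2 control, and 162.6 and 127.7 in F3 control. It read 57.7 and 72.3 in F1, 78.5 and 59.1 in F2, and 75.8 and 77.5 in F3 of the vinclozolin lineage. Every vinclozolin array lay below every control array. This probe set fell by 0.76, 0.72 and 0.79 on the log2 scale in F1, F2 and F3 (SE 0.15 each; adjusted p 0.00215, 0.00575 and 0.0122). The F2 call was lost without the F2 control array of replicate 1 or the F2 vinclozolin array of replicate 2 (adjusted p 0.0657 and 0.0826). The F3 call was lost without the F3 control array of replicate 1 or either F3 vinclozolin array (adjusted p 0.0800 to 0.208).

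Probe set 1374919_at of the same gene rose in F1, by 0.59 ± 0.12 (adjusted p = 0.00253). Its signals were 222 and 248.2 on F1 control arrays and 328.8 and 397 on F1 vinclozolin arrays, with no overlap. It gave 0.35 ± 0.12 in F2 (adjusted p = 0.0618) and 0.19 ± 0.12 in F3. The brightest, 1391078_at, gave −0.14, −0.25 and −0.42 in the 3 generations, and fell by 0.27 ± 0.07 in their mean (adjusted p = 0.00554). With arrays centred on their medians the mean was −0.18 and not called (0.0678). The sign of a change of Rfc1 therefore depended on the probe set read.

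Rfc2 and Rfc3, further small subunits, rose in F1 by 0.45 ± 0.11 (adjusted p = 0.00734) and 0.41 ± 0.10 (0.00825). Rfc2 (1370910_at) read 323.7 and 300.2 in F1 control against 384 and 486.4 in F1 vinclozolin, and 319.2 and 306.1 in F3 control against 328.4 and 331 in F3 vinclozolin. Rfc3 (1389326_at) read 427.7 and 443.1 in F1 control against 525.9 and 644.1 in F1 vinclozolin, and 448.2 and 429.9 in F3 control against 487.9 and 505.6 in F3 vinclozolin. For both, all 6 vinclozolin arrays were above all 6 control arrays, by a small margin in F3. The F2 estimates were 0.29 (95% interval 0.06 to 0.52) and 0.25 (0.04 to 0.46), and neither was called there. In F1 the call of Rfc2 was lost without the control array of replicate 2 (adjusted p = 0.083), and that of Rfc3 without that of replicate 1 (0.0729). The beta-actin ratio as a covariate turned both signs in F1, to −0.38 and −0.47, with 0 calls. Rfc4 was not called: its F1 estimate of 0.31 (95% interval −0.02 to 0.64) came with signals of 432 and 712.5 on the F1 vinclozolin arrays, against 455.6 and 435.2 in F1 control.

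The promoters of a gene that rose and holds E2F matches (Rfc3) and of a gene that rose and holds none (Rfc5) are shown, each from 200 bases before to 25 after the start annotated in RefSeq on GRCr8, 5′ to 3′ along the gene. Capitals mark matches to E2F sites (TTTGGCGC, TTTCCCGC, TTTCGCGC or TTTGCCGC, on either strand), to the cell cycle homology region (TTTGAA, either strand) or to a CCAAT box (CCAAT, either strand).
Rfc3 promoter, chr12:5836368-5836592, plus strand: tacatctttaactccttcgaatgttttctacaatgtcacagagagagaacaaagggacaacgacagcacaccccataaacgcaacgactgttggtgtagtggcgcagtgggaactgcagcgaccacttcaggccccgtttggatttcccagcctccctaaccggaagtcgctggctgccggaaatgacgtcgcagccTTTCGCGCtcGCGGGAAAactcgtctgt
Rfc5 promoter, chr12:44868122-44868346, plus strand: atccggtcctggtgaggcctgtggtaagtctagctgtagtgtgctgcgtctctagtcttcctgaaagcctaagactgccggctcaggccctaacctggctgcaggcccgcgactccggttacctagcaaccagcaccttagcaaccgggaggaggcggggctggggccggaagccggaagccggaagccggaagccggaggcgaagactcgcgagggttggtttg
The window of Rfc3 held 2 E2F matches near the start, and that of Rfc5 held none of the 3 motifs in this stretch. Over the full 300 bases of the table (250 before and 50 after the start), 40 of the 55 member genes had an entry. An E2F match stood in 9 of these 40 (22.5%), against 2.14% of the 33469 promoters in the table. Among the DNA synthesis genes it stood in 3 of 9. A match is a run of letters, and binding was not measured.

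Pola1, the catalytic subunit of the polymerase that starts each strand, also rose. Its signals (1376611_at) were 237.9 and 213 in F1 control and 304.8 and 352.7 in F1 vinclozolin. In F2 they were 206.7 and 232.6 against 309.1 and 273.3, and in F3 they were 208.2 and 229.1 against 211.6 and 256.1. The F1 and F2 pairs did not overlap, while the F3 pairs did. The changes were 0.51 ± 0.12 in F1 (adjusted p = 0.00731) and 0.38 ± 0.12 in F2 (0.0498), and the F3 estimate was 0.09 ± 0.12. The F1 call was lost without the F1 control array of replicate 2 (adjusted p = 0.0880), and the F2 call without any of the 6 control arrays or either F2 vinclozolin array (0.0685 to 0.293). That F2 call also ended with the replicate number as a block (0.0508), with an offset of 1 (0.0550) and after quantile normalization (0.0555).

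Pole, the catalytic subunit of the leading-strand polymerase, fell by 0.31 ± 0.10 in F1 (adjusted p = 0.0408), from 221.8 and 212.1 to 179.2 and 163.9. That call was lost in 7 of the 12 fits that left out an array (adjusted p 0.0604 to 0.204), after quantile normalization (−0.27; 0.0687) and with median centring (−0.20; 0.174). In the mean Pole fell by 0.20 ± 0.06 (limma adjusted p = 0.0174). Pold1, of the lagging-strand polymerase, was not called, at −0.13 in F1 (95% interval −0.37 to 0.10). Pcna, the clamp itself, read 2059 to 2268.1 on control arrays and 2067.3 to 2624.4 on vinclozolin arrays, which overlap. Its estimates were 0.13, 0.01 and 0.20 in F1, F2 and F3, with 95% intervals that reached no further than 0.40.

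**Figure D3:**
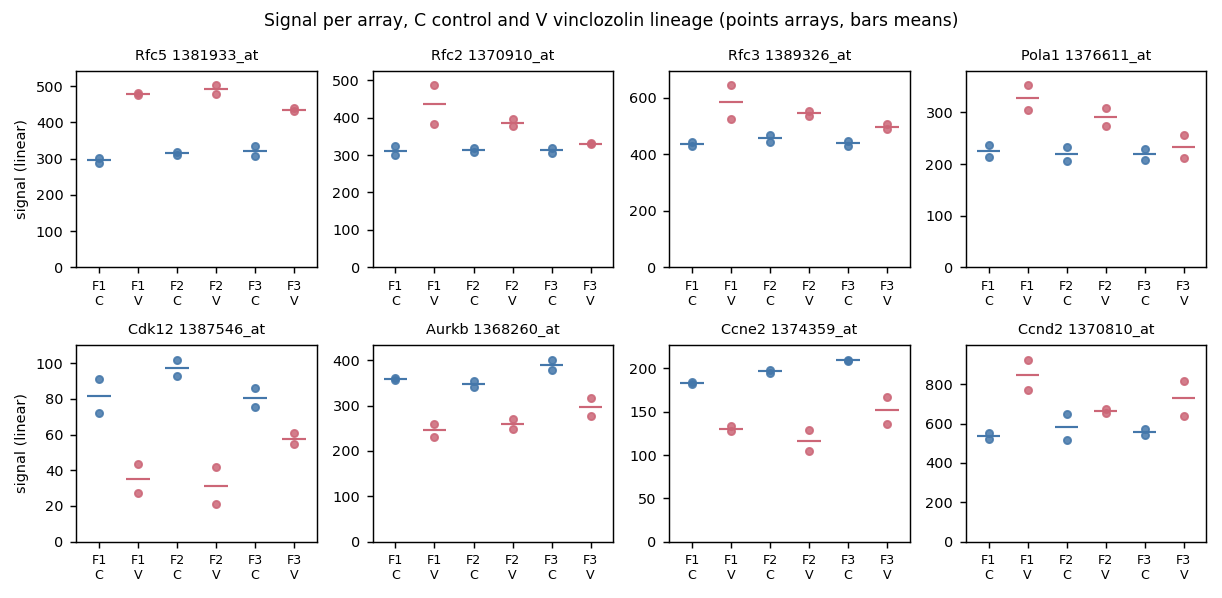
Linear signal on each array for 8 called member probe sets, by generation and lineage (C control, V vinclozolin); points are arrays and bars are means of 2. Rfc5, Rfc2 and Rfc3 lie above control in all 6 vinclozolin arrays, Aurkb, Ccne2 and Cdk12 (1387546_at) lie below control in all 6, Pola1 overlaps control in F3, and Ccnd2 is above control within each generation.

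Of the 6 Mcm probe sets of the replicative helicase, 1 rose in F1. Limma called 0 in F2, F3 and the mean, where 1, 1 and 2 had an unadjusted p under 0.05. Of all tested probe sets 23.1% were called in F1, 14.3% in F2, 3.11% in F3 and 33.3% in the mean. Counts over 6 probe sets cannot set the Mcm genes apart from these shares. Mcm6 (1371074_a_at) read 1114.6 and 1137.9 in F1 control and 1613.9 and 1264.5 in F1 vinclozolin. In F2 it read 1286.2 and 1379.5 against 1462.7 and 1663.8, and in F3 1135.6 and 1181.9 against 1082.5 and 1084.8. Its vinclozolin pairs were thus above control in F1 and F2 and below it in F3. It rose by 0.34 ± 0.10 in F1 (adjusted p = 0.0284), and gave 0.23 ± 0.10 in F2 (0.167) and −0.10 ± 0.10 in F3. For the dependence of this difference on generation, the limma F test gave an adjusted p of 0.220. Its F1 call was lost without either F1 control array (adjusted p 0.141 and 0.111), without the F1 vinclozolin array of replicate 1 (0.143), and after quantile normalization (0.149).

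The other 5 Mcm genes were not called in any generation. Their F1 estimates ran from −0.17 for Mcm3 (95% interval −0.36 to 0.02) to 0.13 for Mcm7 (−0.04 to 0.30). In F2 they ran from −0.07 for Mcm4 (−0.26 to 0.12) to 0.23 for Mcm5 (−0.0021 to 0.46; adjusted p = 0.179). In F3 they ran from −0.20 for Mcm3 (−0.39 to −0.01; adjusted p = 0.245) to 0.12 for Mcm4. Mcm2 read 668.9 to 726.9 on control arrays and 628.4 to 704.1 on vinclozolin arrays. Changes of more than about 0.4 on the log2 scale therefore lie outside the intervals of Mcm2, Mcm3, Mcm4 and Mcm7 in each generation, but not of Mcm5 in F2.

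The promoter of Mcm6 is given as an example of the helicase genes, whose promoters shared the E2F motif. Its capitals are as above, and the run of 12 holds 2 E2F matches that overlap on opposite strands.
Mcm6 promoter, chr13:42404328-42404552, minus strand: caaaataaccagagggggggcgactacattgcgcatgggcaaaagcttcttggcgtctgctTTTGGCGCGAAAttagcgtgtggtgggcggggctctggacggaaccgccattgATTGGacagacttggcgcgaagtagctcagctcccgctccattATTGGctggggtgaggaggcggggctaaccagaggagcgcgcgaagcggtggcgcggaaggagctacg
An E2F match stood in all 5 of the Mcm promoters in the table. Of these 5 genes, 1 was called in F1 and none in F2 or F3, and differences between the genes were not tested.

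**Figure D4:**
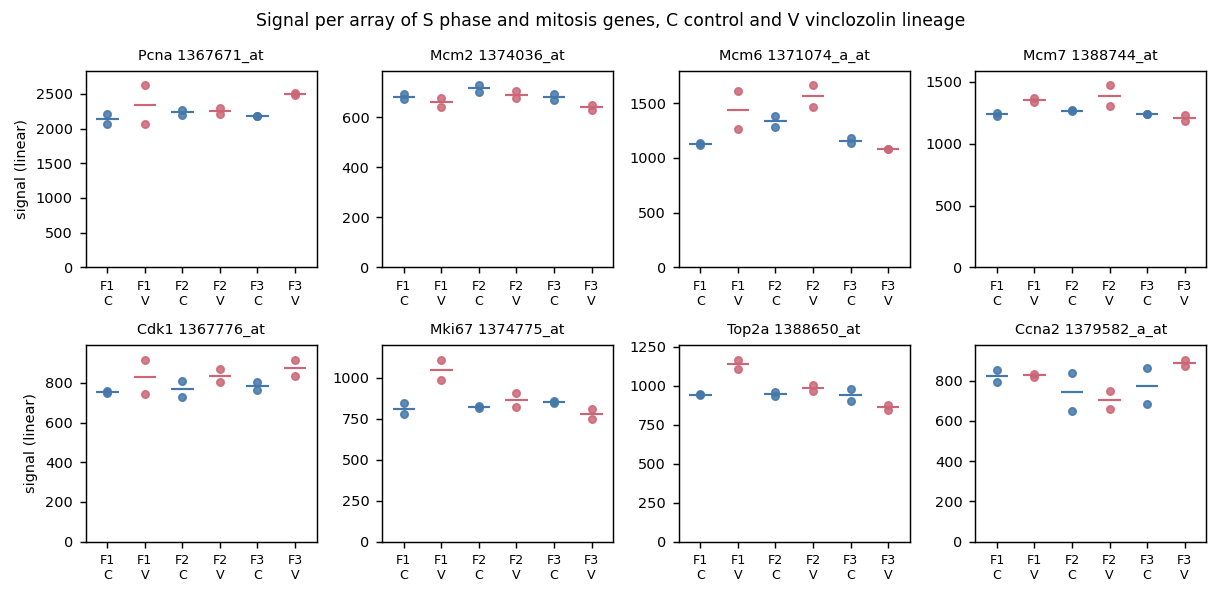
Linear signal on each array for 8 genes of DNA replication and mitosis, by generation and lineage (C control, V vinclozolin); points are arrays and bars are means of 2. Mki67, Top2a (1388650_at) and Mcm6 are above control in F1 and below it in F3, while Pcna, Mcm2, Cdk1 and Ccna2 were not called in any generation.

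Among the D-type cyclins, which link growth signals to the cycle, Ccnd2 rose and a probe set of Ccnd1 fell. Of 6 tested probe sets in this role, 1 rose and 1 fell in F1, and 1 fell in F2. Ccnd2 (1370810_at) read 522.6 and 551 in F1 control against 770.1 and 924.9 in F1 vinclozolin. It read 516.9 and 646 against 653.1 and 674.2 in F2, and 540.9 and 573.9 against 640.6 and 815 in F3. The pairs did not overlap in any generation, though the highest control array (646) passed the lowest vinclozolin array (640.6). It rose by 0.64 ± 0.13 in F1 (adjusted p = 0.00215) and by 0.40 ± 0.07 in the mean (0.000686). The F2 and F3 estimates, 0.19 ± 0.13 and 0.37 ± 0.13, were not called.

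Ccnd1 was read by 3 probe sets. Probe set 1383075_at was 139 and 147.8 in F1 control against 78.1 and 42.6 in F1 vinclozolin, and 152.7 and 188.8 against 84.2 and 122.5 in F2. In F3 it was 141.6 and 136.6 against 120.1 and 160.8, pairs that overlap. It fell by 1.10 ± 0.21 in F1 (adjusted p = 0.00142) and by 0.66 ± 0.21 in F2 (0.0444), and gave 0.00 ± 0.21 in F3. The F2 call was lost in 8 of the 12 fits that left out an array (adjusted p 0.0510 to 0.267), with an offset of 1 (0.0644), after quantile normalization (0.0610) and with median centring (0.0708). The limma F test of dependence on generation gave an adjusted p of 0.112, or 0.00526 without the F1 vinclozolin array of replicate 1. The other probe sets, 1371150_at and 1371643_at, gave −0.19 (95% interval −0.50 to 0.11) and 0.11 (−0.19 to 0.41) in F1, and neither was called in any generation. Ccnd3 and Cdk4 were not called, with F1 intervals of −0.29 to 0.09 and −0.18 to 0.21.

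In the step that starts replication, Ccne2 and Cdk2 fell. Of the 8 tested probe sets of E- and A-type cyclins and Cdk2, 2 fell in F1, the same 2 fell in F2, and none rose. Ccne2 (1374359_at), an activator of Cdk2, read 183.9 and 182.3 in F1 control, 195 and 198.7 in F2 control and 208.9 and 210.3 in F3 control. The vinclozolin arrays read 127.3 and 133.4 in F1, 128.6 and 104.2 in F2, and 135.4 and 167.5 in F3. All 6 were below all 6 control arrays. The gene fell by 0.44 ± 0.12 in F1 (adjusted p = 0.0173) and by 0.69 ± 0.12 in F2 (0.00198). In F3 the estimate was −0.44 ± 0.12 (0.0700). The F1 call was lost without either F1 control array (0.0954 and 0.0904), and with median centring (−0.33; 0.0647). Its dimmer probe set, 1391681_at, gave 0.03 in F1 (95% interval −0.42 to 0.47).

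Both probe sets of Cdk2, the kinase of this step, gave negative estimates in every generation. Probe set 1394320_at read 179.5 and 185.7 in F1 control against 109.5 and 110.9 in F1 vinclozolin, and 175.2 and 169.3 against 125.2 and 134.8 in F2. In F3 it read 179.1 and 182.4 against 165.1 and 142.9. All vinclozolin arrays were below all control arrays, with the narrowest gap in F3. It fell by 0.65 ± 0.11 in F1 (adjusted p = 0.000673) and by 0.37 ± 0.11 in F2 (0.0367), and gave −0.21 ± 0.11 in F3. The F2 call was lost in 8 of the 12 fits that left out an array (0.0607 to 0.188), after quantile normalization (0.0621) and with median centring (0.130), and on the 4 arrays of F2 alone (0.0533). Probe set 1378874_at gave −0.50 ± 0.18 in F1 (adjusted p = 0.0594) and fell by 0.37 ± 0.10 in the mean (0.0137). That call in the mean was lost without the F1 control array of replicate 1, the F2 control array of replicate 2 or the F3 control array of replicate 1 (0.0516 to 0.0525), and with median centring (0.0503).

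The remaining cyclins of this role were not called. Ccna2, which pairs with Cdk2 and Cdk1 from replication to mitosis, read 651.6 to 864 on control arrays and 656.9 to 904.9 on vinclozolin arrays, with an F1 estimate of 0.01 (95% interval −0.26 to 0.27). Ccne1 gave 0.13 in F1, 0.39 in F2 (0.05 to 0.72; adjusted p = 0.115) and 0.02 in F3. Ccna1, a cyclin of meiotic germ cells, was near the dim limit of the test, at 3.7 to 27.6 on control arrays over its 2 probe sets.

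Of the 7 E2f genes tested, 0 were called in F1 by limma, with 1 at an unadjusted p under 0.05, and 1 rose in F2. E2f1, an activator of replication genes, read 160.8 and 120.5 in F2 control against 225.7 and 204.8 in F2 vinclozolin. In F1 it read 177.4 and 154.9 against 203.2 and 179.7, and in F3 157.8 and 151 against 162.5 and 171.8. The pairs did not overlap in any generation, but the ranges of the lineages did. It rose by 0.57 ± 0.13 in F2 (adjusted p = 0.00986) and by 0.29 ± 0.08 in the mean (0.00896). The F2 call was lost without the F2 control array of replicate 2 (0.142) or the F2 vinclozolin array of replicate 1 (0.0573). E2f4, a factor that mostly acts with the pocket proteins to repress, fell by 0.26 ± 0.06 in the mean (0.00457), with estimates of −0.27, −0.32 and −0.18 in F1, F2 and F3. E2f2, E2f5, E2f6, E2f7 and E2f8 were not called in any comparison, with F1 estimates from −0.34 for E2f8 to 0.05 for E2f2.

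The mitosis genes split by gene in F1. Of 15 tested probe sets, 2 rose (Mki67 and 1388650_at of Top2a) and 3 fell (Aurkb, 1387895_s_at of Cdc20 and 1370346_at of Ccnb1). In F2, 1 fell, and in F3 limma called none, with 2 at an unadjusted p under 0.05. In the mean 4 fell and none rose.

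Aurkb, the kinase of the chromosomal passenger complex, read 361.9 and 356.3 in F1 control, 355.2 and 340.6 in F2 control and 378.8 and 401.7 in F3 control. In the vinclozolin lineage it read 260.2 and 231.6 in F1, 270.7 and 248.6 in F2, and 277.9 and 317.1 in F3. Every vinclozolin array was below every control array. It fell by 0.52 ± 0.10 in F1 (adjusted p = 0.00204) and by 0.40 ± 0.10 in F2 (0.0167), and the F3 estimate was −0.38 ± 0.10 (0.0599). The F2 call was lost without either F2 control array (0.126 and 0.0748), without the F2 vinclozolin array of replicate 2 (0.129) and with median centring (0.0598). Aurka, the spindle pole kinase of the same family, was not called, at 0.03 in F1 (95% interval −0.21 to 0.27).

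Mki67, the source of the Ki-67 antigen of cycling cells, had the lowest p of all members for dependence on generation. It read 778.7 and 845 in F1 control against 986.6 and 1112.1 in F1 vinclozolin, and 829.8 and 815.4 against 906.2 and 821.3 in F2. In F3 it read 856.5 and 849.6 against 810.8 and 751.1. The vinclozolin pair was thus higher in F1 and lower in F3, and the F2 pairs overlapped. It rose by 0.36 ± 0.09 in F1 (adjusted p = 0.00904), with 0.07 ± 0.09 in F2 and −0.13 ± 0.09 in F3. The limma F test gave an adjusted p of 0.106, so a difference between generations was not called, though without the F1 vinclozolin array of replicate 1 it was (0.00885). The F1 call was lost without the F1 control array of replicate 1 (0.107). Top2a (1388650_at), which untangles replicated DNA, read 939.4 and 945.7 in F1 control against 1108.8 and 1168.1 in F1 vinclozolin, and 976.6 and 905.2 against 847.5 and 877.3 in F3. It rose by 0.27 ± 0.08 in F1 (adjusted p = 0.0239), and the limma F test gave an adjusted p of 0.154, or 0.0217 without that same array. The F1 call was lost without either F1 control array (0.129 and 0.119) and after quantile normalization (0.121). Its other probe set, 1372186_a_at, gave −0.14 in F1 and fell by 0.18 ± 0.06 in the mean (0.0218).

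Cdc20, the activator of the complex that ends metaphase, had 4 tested probe sets. Of these 1387895_s_at fell by 0.55 ± 0.10 in F1 (adjusted p = 0.00149), from 437.4 and 463.2 to 285.1 and 320.2, pairs that do not overlap. The other 3 were not called, and 1370294_a_at, of similar brightness, gave 0.02 in F1 (95% interval −0.20 to 0.23). The suffix _s_at marks a probe set that can match more than 1 transcript, so its gene is less certain. Ccnb1 (1370346_at), the main cyclin of mitosis, fell by 0.24 ± 0.08 in F1 (0.0438), from 1269.7 and 1232.1 to 1017 and 1094. It also fell by 0.13 ± 0.05 in the mean (limma adjusted p = 0.0477), and neither call was followed under the alternative settings. Its other probe set, 1370345_at, gave −0.20 ± 0.10 (0.166). Cdk1, its partner kinase, read 729.5 to 810.4 on control arrays and 742.8 to 917.6 on vinclozolin arrays, with estimates of 0.13, 0.12 and 0.15 that were not called. Ccnb2, Plk1 and Bub1b were not called either, with F1 estimates of 0.20 (0.01 to 0.39), −0.10 (−0.41 to 0.20) and 0.11 (−0.09 to 0.30).

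The promoters of Cdk1 and Mki67 show the TTTGAA motif that most, but not all, of the mitosis promoters in the table held, with capitals as above.
Cdk1 promoter, chr20:19265093-19265317, plus strand: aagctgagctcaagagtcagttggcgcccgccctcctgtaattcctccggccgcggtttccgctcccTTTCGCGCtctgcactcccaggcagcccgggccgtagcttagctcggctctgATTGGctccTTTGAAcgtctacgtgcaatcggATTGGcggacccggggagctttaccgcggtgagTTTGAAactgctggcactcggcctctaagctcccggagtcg
Mki67 promoter, chr1:199952569-199952793, minus strand: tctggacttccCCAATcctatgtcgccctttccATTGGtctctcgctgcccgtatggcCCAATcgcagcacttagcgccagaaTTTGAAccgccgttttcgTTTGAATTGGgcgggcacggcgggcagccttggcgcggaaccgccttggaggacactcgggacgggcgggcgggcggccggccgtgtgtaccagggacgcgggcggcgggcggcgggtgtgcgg
Each window held 2 matches to TTTGAA, and 1 of those in Mki67 overlaps a CCAAT box by 1 base. TTTGAA stood in 7 of the 9 mitosis promoters in the table, in 10 of the 40 member promoters (25%) and in 18.3% of all promoters. CCAAT stood in 24 of the 40 (60%) and in 37.5% of all. Of the printed genes with this motif, Mki67 was called in F1 (0.36 ± 0.09) and Cdk1 was not (0.13 ± 0.10). Both estimates were positive, and the difference between these genes was not tested.

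The transcriptional Cdks, which phosphorylate RNA polymerase or act in Mediator, had 0 higher and 3 lower calls among 10 tested probe sets in F1, and 0 and 2 in F2. In F3 limma called 0 of them, with 2 at an unadjusted p under 0.05, and in the mean 3 fell. Cdk12, a kinase of elongating polymerase, gave the lowest values. Probe set 1387546_at read 72 and 90.9 in F1 control, 102 and 93 in F2 control and 75.3 and 86 in F3 control. It read 27 and 43.5 in F1, 41.6 and 21 in F2, and 60.9 and 54.6 in F3 of the vinclozolin lineage. All 6 vinclozolin arrays were below all 6 control arrays. It fell by 0.94 ± 0.21 in F1 (adjusted p = 0.00418) and by 1.30 ± 0.21 in F2 (0.000870), and gave −0.39 ± 0.21 in F3. The F1 call was lost without the F1 control array of replicate 2 (0.0598). For dependence on generation the limma F test gave an adjusted p of 0.207.

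The brighter probe set of Cdk12, 1396320_at, was also below control on all 6 arrays. It read 190.8 to 212.8 on control arrays, with a median of 194.1, and 142.2 to 165.3 on vinclozolin arrays, with a median of 149. It fell by 0.37 ± 0.11 in F2 (adjusted p = 0.0353) and by 0.35 ± 0.06 in the mean (0.000647), and gave −0.29 in F1 (0.0668) and −0.39 in F3 (0.0706). The F2 call was lost in 8 of the 12 fits that left out an array (0.0585 to 0.247), and with median centring (0.108). Cdk12 and Cdk2 were thus the genes whose tested probe sets were all called the same way in the mean. For Cdk2 this did not hold with median centring. Nor did it hold in the mean of F2 and F3 alone, where 1378874_at gave −0.30 (limma adjusted p = 0.119).

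Cdk9, the kinase that releases paused polymerase, fell in F1 on both its probe sets. Probe set 1372759_at went from 846.5 and 839.5 to 752.6 and 613.7, a change of −0.30 ± 0.09 (adjusted p = 0.0303). The dim 1376491_a_at went from 42.5 and 52.1 to 25.9 and 23.3, a change of −0.64 ± 0.22 (0.0454). Neither was called in F2 or F3. The first call was lost without either F1 control array or the F1 vinclozolin array of replicate 2 (0.130 to 0.162), and with median centring, where the change was −0.19 (0.148). The other call was lost in 8 of the 12 fits that left out an array (0.0601 to 0.242), with the replicate number as a block (0.0537), with an offset of 1 (0.0535), after quantile normalization (0.0788) and with median centring (0.0805). In the mean of the 3 differences, 1372759_at of Cdk9 fell by 0.19 ± 0.05 (limma adjusted p = 0.0126). Cdk7, Cdk8, Cdk13 and Cdk19 were not called. Cdk19, of Mediator, gave 0.13 in F1 and −0.43 in F3 (95% interval −0.68 to −0.18, adjusted p = 0.0589).

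Among the other Cdks, 2 of 10 tested probe sets fell in F1 and limma called 0 in F2 or F3, where 0 also had an unadjusted p under 0.05. Cdk17, of the PCTAIRE group, read 313 and 283.9 in F1 control against 247.3 and 161.1 in F1 vinclozolin, a change of −0.54 ± 0.15 (adjusted p = 0.0147). Without the F1 vinclozolin array of replicate 2 the change was −0.25 (0.128), and without the F1 control array of replicate 1 the call was also lost (0.116). Cdk10 (1395122_s_at) read 71.3 and 51.9 in F1 control against 49.2 and 13.2, a change of −0.82 ± 0.27 (0.0401). Without the F1 vinclozolin array of replicate 2 that change was −0.24 (0.470), and the call was lost in 11 of the 12 such fits, after quantile normalization (0.0653) and with median centring (0.0578). The other probe sets of Cdk10 gave −0.22 and 0.29. Cdk5, Cdk14, Cdk16, Cdk18 and Cdk20 were not called in any comparison, with F1 estimates from −0.13 for Cdk14 to 0.07 for Cdk18.

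**Figure D5:**
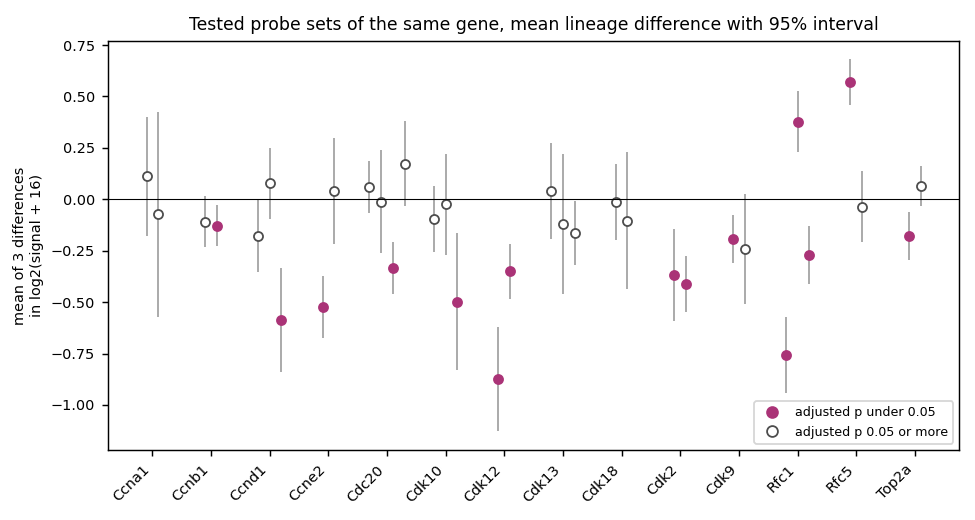
Mean of the 3 lineage differences in log2(signal + 16) for the 14 member genes with several tested probe sets; each point is a probe set, lines are 95% intervals and filled points have an adjusted p under 0.05. Cdk12 and Cdk2 have all probe sets called lower (with median centring 1378874_at of Cdk2 is not), while Rfc1 has 1 called higher and 2 called lower (1391078_at is not called with that centring).

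Probe sets of the same gene often gave different answers. Of the 14 genes with several tested probe sets, 34 probe sets in all, 11 had at least 1 called in F1, and 1 gene had all of them called the same way. The signs differed within 8 of the 14 genes in F1, 7 in F2 and 9 in F3. Rfc1 was called both ways in F1 and in the mean. With only the brightest probe set of each gene, 54 members were tested, and the calls were 13 in F1, 5 in F2, 0 in F3 and 13 in the mean, beside 18.8%, 9.09%, 2.21% and 30.3% of all 11287 probe sets so tested. The position of each probe set along its transcript was not used here, and the part of probe position in these differences was not tested.

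Across all 6 arrays of each lineage, 3 members stood above control without overlap (Rfc2, Rfc3 and 1381933_at of Rfc5), or 4.05% beside 5.52% of all tested probe sets. Below control without overlap stood 8 (Rfc1 1370591_at, Ccne2 1374359_at, Cdk2 1394320_at, Aurkb, Cdk10 1395122_s_at, both of Cdk12, and Cdk9 1372759_at), or 10.8% beside 7.73% of all.

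The difference between lineages was also compared between generations. The F test of dependence on generation called 0 of 74 members with limma, beside 2.6% of all tested probe sets. At an unadjusted p under 0.05 there were 9 members, or 12.2% beside 17.1% of all. With array weights 1 member was called, Ccnd1 1383075_at (adjusted p = 0.0390). Without the F1 vinclozolin array of replicate 1 the count was 12, beside 16.1% of all: Rfc1 1391078_at, Rfc2, Rfc4, Mcm5, Mki67, Top2a 1388650_at, Ccnd1 1383075_at, Cdk8, Cdk9 1372759_at, Cdk10 1395122_s_at, Cdk17 and Cdk19. Without that of replicate 2 it was 2 (Mcm6 and Cdk19), beside 4.48% of all, and without the F2 vinclozolin array of replicate 1 it was 1 (Plk1), beside 3.8%. Among the 3 control groups, 0 members were called and 0% of all tested probe sets, with 2 members at an unadjusted p under 0.05, the lowest being 0.0209 for Cdc20 1387895_s_at.

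Other genes of the cycle were counted from lists of their known roles, to be read beside the shares of all tested probe sets. These were 9.41% higher and 13.7% lower in F1, 4.7% and 9.65% in F2, and 1.05% and 2.06% in F3. At an unadjusted p under 0.05 in limma were 6205 of all 21729 in F2 and 3973 in F3. Among 12 tested probe sets of Cdk inhibitors and pocket proteins, 1 rose and 3 fell in F1, and limma called 0 in F2 and F3, where 1 and 0 had an unadjusted p under 0.05. Both probe sets of Cdkn2d, an inhibitor of Cdk4 and Cdk6, fell in F1, by 0.57 ± 0.17 and 0.51 ± 0.18 (adjusted p 0.0217 and 0.0490). Rbl2, a pocket protein, fell by 0.44 ± 0.15 (0.0450), and Cdkn3, a phosphatase that acts on Cdks, rose by 0.46 ± 0.16 (0.0476). The inhibitors Cdkn1a, Cdkn1b and Cdkn1c were not called in any generation, and Rb1 gave −0.50 ± 0.18 in F1 (0.0579).

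Among 30 probe sets of Cdk activators, partners and checkpoint kinases, 1 rose and 4 fell in F1, 2 fell in F2 and 1 fell in F3. Fbxw7 (1386794_at), of the ligase that marks cyclin E for destruction, fell by 1.17 ± 0.17 in F1 (adjusted p = 0.000265) and by 0.75 ± 0.17 in F2 (0.00997), while its other probe set gave 0.06 and −0.14. Wee1 (1397409_s_at), an inhibitory kinase of Cdk1, fell by 0.80 ± 0.18 in F1 (0.00559), while its other probe set gave −0.02. Ccni (1392937_at) fell in all 3 generations, by 0.36, 0.37 and 0.44, while its other probe set was not called in any. Ccng2 fell by 0.40 ± 0.10 and 1399100_at of Ccnt2, a partner of Cdk9, rose by 0.47 ± 0.11 in F1.

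Among 49 probe sets of other replication genes, 8 rose and 7 fell in F1, and 6 fell in F2. Limma called 0 in F3, where 10 had an unadjusted p under 0.05, beside 3973 of all 21729. The risers of largest change in F1 were Orc5 (1374264_at, 0.59 ± 0.15), Rrm1 (0.49 ± 0.13) and Orc2 (0.44 ± 0.12), of the origin recognition complex and, for Rrm1, of nucleotide synthesis. The other probe set of Orc5, 1373711_at, fell by 0.62 in F1 (adjusted p = 0.0108). Top1 (1369421_at), a topoisomerase, fell by 1.43 ± 0.18 in F1 and 0.98 ± 0.18 in F2, while 1399046_at of the same gene gave 0.12 and 0.04. Orc3 (1395192_at) fell by 0.96 and 0.70, with 0.15 and −0.20 on its other probe set, and Mcm8, a helicase of recombination, fell by 0.62 and 0.89.

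Among 38 probe sets of other mitosis genes, 4 rose and 8 fell in F1, 2 rose and 5 fell in F2, and 1 fell in F3. Nuf2, of the kinetochore, rose by 0.61 ± 0.12 in F1 and by 0.44 ± 0.12 in F2. Cenpf rose by 0.36 ± 0.12 in F1, and Pttg1, the securin, by 0.29 ± 0.09 in F2. The motor proteins Kif23 (1395828_at) and Kif11 (1385619_at) fell by 1.45 ± 0.23 and 0.95 ± 0.16 in F1, and by 1.33 and 1.09 in F2. Their other probe sets gave −0.23 and 0.10 in F1, neither called. Fzr1 (1381189_at), an activator of the complex that degrades cyclins, fell by 0.93 ± 0.17 in F1. Ttk, a checkpoint kinase, rose by 0.39 ± 0.12 on 1379448_at and fell by 0.87 on 1397476_at in F1. In F3 the call was Racgap1 (1384259_at), which fell by 0.74 ± 0.17 (adjusted p = 0.0297), and its other probe set gave 0.29 ± 0.09 in F3 (0.0872).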

How the data were processed

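Total RNA pools of rat embryonic testis were labelled with biotin and hybridised to Affymetrix arrays by standard procedures, per the labels' protocols. The authors deposited a linear signal intensity per probe set, from 0 to 9534.9. The 2% trimmed mean was 125.03 to 125.04 on every array, so the values had been scaled to a common level. Which software summarised the probes is not given in the sources used here. Detection calls were not used. Groups came from the sample titles.

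Values were taken as log2(signal + 16), which understates changes of dim probe sets. Array medians on that scale spanned 0.159, and the values were used as deposited. Control probe sets and the 30% with the lowest mean (below a signal of 14.8) were left out. All 12 arrays entered a single limma fit (version 3.58.1, R 4.3.3; lmFit and a trended eBayes) with 6 group means, 6 residual and 8.97 prior degrees of freedom. P-values were Benjamini-Hochberg adjusted over all 21729 tested probe sets, and those under 0.05 were called. The contrasts were the lineage difference (vinclozolin minus control) per generation, the mean of these, an F test of dependence on generation and an F test among control groups. The number of arrays, 2 per group, limits the precision. The code was tested on simulated data.

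Named genes followed a rule. For F1, F2, F3 and the mean it took every called member, or the 12 of largest change in a direction with more. For each pathway list it took up to 3 called probe sets per direction. Ccnb1 in F1, the calls of Ccnb1, Cdk9, Pole and Top2a in the mean, and uncalled members were named outside it. This was done after their values were seen, to account for the members. Single calls of Ccnb1 and of the pathway lists, and those calls in the mean, were not followed under the alternatives. The members, lists and rules were chosen with earlier results of these data known. Gene symbols came from the array annotation, and promoters from RefSeq on GRCr8, where 40 of 55 member genes matched. Alternatives were other offsets, filters, scalings and fits, a replicate block, the beta-actin ratio as covariate and each array left out. Reading the brightest probe set alone and taking the mean of F2 and F3 alone were chosen after seeing the data.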

Additional observations from a re-analysis of the deposited data

How the results depend on the processing

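Counts of called members kept within 1.5 times the reported ones under offsets of 1 and 64, quantile normalization, median centring, no low-signal filter and the replicate block, though not always for the same members: median centring shared 16 of 22 calls in F1, 6 of 10 in F2 and 17 of 23 in the mean, and quantile normalization 17, 7 and 22. In F3, leaving out the lowest 50% gave 5 calls in place of 2, beside 4.69% of all tested probe sets. Array weights gave 9 there (12.5% of all), eBayes without trend 1 (1.22%) and the arrays of F3 alone 10 (10.4%). The arrays of F1 alone gave 10 in F1 in place of 22 (10.6% of all). Array weights also called 1 member for dependence on generation, beside 4.34% of all. The brightest probe set of each gene gave 13 in F1, 5 in F2, 0 in F3 and 13 in the mean, with fewer members tested. Beside these stood 18.8%, 9.09%, 2.21% and 30.3% of all. The mean of F2 and F3 alone gave 14, beside 18.8% of all. It ended the calls in the mean of Pola1, Rfc2, Ccnd1 1383075_at, Cdk10 1395122_s_at and Cdk2 1378874_at (limma adjusted p 0.0750 to 0.246). Leaving out 1 array in turn gave 11 to 30 calls in F1, 4 to 18 in F2, 0 to 10 in F3, 18 to 35 in the mean and 0 to 12 for dependence on generation; among control generations it was 0 throughout. For F1, F2, F3, the mean and the dependence on generation, the highest of these counts came without an F1 vinclozolin array. The share of all tested probe sets was also highest there, so these upper ends are not specific to the members. The causes of these changes in counts were not tested. The beta-actin ratio as covariate left 0 calls in F1, F2, F3 and the mean, beside 0%, 0%, 1.14% and 0% of all tested probe sets. In F3 this covariate made the median standard error of the members 1.21 times as large. It reversed Ccnd2 (F1 −0.100, mean −0.0528), Rfc1 1374919_at (−0.0635, −0.0221), Rfc2 (−0.375, −0.235), Rfc3 (−0.466, −0.259), Cdk10 1395122_s_at (2.66, 1.63), Ccnd1 1383075_at (F1 0.0152, F2 0.0720, mean 0.0977), Cdk17 (F1 1.03), Cdk9 1372759_at (F1 0.42), Cdk2 1378874_at (mean 0.49) and E2f4 (mean 0.0025), with the standard errors of the members 4.29 times as large in F1 and 4.54 times in the mean.

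The replicate numbers are shared by all groups. With the replicate block the calls were 21 in F1, 10 in F2, 2 in F3 and 22 in the mean. Beside these stood 23.1%, 14.3%, 3.28% and 33.1% of all tested probe sets. The block ended the named calls of Pola1 in F2 (limma adjusted p 0.0508) and Cdk9 1376491_a_at in F1 (0.0537). Over 15 pairs of groups, the deviations of same-numbered arrays correlated by −0.09 to 0.07, so no shared deviation by number was seen. Whether same-numbered pools were handled together was not tested. Of the values of single named members under the alternatives, 982 kept direction and call, 196 kept direction and lost the call, and 17 reversed, as listed above.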
